A study of Mus musculus with 6 samples.

Results

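The 9 genes described here are interferon-stimulated genes, taken from the deposited tables by symbol: Ifit1, Ifit3, Isg15, Irf7, Oasl2, Bst2, Usp18, Rtp4 and Irf9. They are 9 of the 35415 genes in the tables, and all 9 had enough counts to be tested. RNA was sequenced from the lateral septum (LS) of wild-type female C57BL/6 mice, about 8 weeks old on arrival, that for 12 weeks ate chow holding 50 mg olanzapine in each kg (olanzapine group) or control chow (control group). The tissue of 3 mice was pooled for each library, and each group had 3 pools, so n = 3 pools per group throughout and single mice were not measured. Olanzapine is a second-generation antipsychotic, and the comparison asks which transcripts differ in the LS after prolonged exposure to it. Nothing in the labels or methods describes an infection or an interferon treatment.

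Type I interferons bind a receptor made of Ifnar1 and Ifnar2, which activates the kinases Jak1 and Tyk2. These phosphorylate Stat2, which joins Irf9 in a complex that binds the interferon-stimulated response element (ISRE) in the promoters of target genes. In the uninfected brain a low level of the pathway is known from microglia, endothelium and other cells, and the products of its target genes restrict viruses and tune later signalling.

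The RefSeq promoter table (GRCm38.p6, the assembly that mm10 names) held windows for 7 of the 9 genes, each running from 250 bases before to 50 bases after a start site. The core of an ISRE was searched on both strands as GAAA, any 2 bases, GAAA. It was found for 4 of the 7 genes, Ifit1, Ifit3, Isg15 and Bst2, against 3.99% of all 27025 genes in the promoter table. Of the wider list of interferon genes described further on, 29 of 56 with a window held it. A match is a description of the letters and not a bound site. The windows of the 4 genes with a match are shown because the motif is the feature that they share, and a window of Irf9 is shown as the member whose level differed least between the groups. Each reads 5′ to 3′ along the gene's strand, and capitals mark the matches, which overlap in Isg15 and in Bst2 and lie on the opposite strand in Ifit1 and Ifit3.
Ifit1 (chr19:34640639-34640938, + strand): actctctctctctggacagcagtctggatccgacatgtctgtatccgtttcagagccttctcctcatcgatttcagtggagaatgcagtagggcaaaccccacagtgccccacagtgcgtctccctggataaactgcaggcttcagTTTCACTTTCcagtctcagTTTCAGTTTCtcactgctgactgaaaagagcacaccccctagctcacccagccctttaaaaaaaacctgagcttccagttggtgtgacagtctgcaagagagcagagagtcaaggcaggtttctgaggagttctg
Ifit3 (chr19:34583279-34583578, + strand): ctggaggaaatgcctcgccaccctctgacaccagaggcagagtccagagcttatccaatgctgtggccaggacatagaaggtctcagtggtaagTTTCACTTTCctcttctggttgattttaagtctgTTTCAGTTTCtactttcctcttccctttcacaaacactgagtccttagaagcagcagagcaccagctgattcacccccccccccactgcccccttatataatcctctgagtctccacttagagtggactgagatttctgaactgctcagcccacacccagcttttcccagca
Isg15 (chr4:156200769-156201068, - strand): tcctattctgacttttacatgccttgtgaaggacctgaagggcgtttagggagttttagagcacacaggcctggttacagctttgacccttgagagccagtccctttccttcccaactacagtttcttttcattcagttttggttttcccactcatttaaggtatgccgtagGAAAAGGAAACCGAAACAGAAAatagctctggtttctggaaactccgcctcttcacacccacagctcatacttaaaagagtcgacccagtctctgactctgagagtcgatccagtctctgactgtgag
Bst2 (chr8:71537423-71537722, - strand): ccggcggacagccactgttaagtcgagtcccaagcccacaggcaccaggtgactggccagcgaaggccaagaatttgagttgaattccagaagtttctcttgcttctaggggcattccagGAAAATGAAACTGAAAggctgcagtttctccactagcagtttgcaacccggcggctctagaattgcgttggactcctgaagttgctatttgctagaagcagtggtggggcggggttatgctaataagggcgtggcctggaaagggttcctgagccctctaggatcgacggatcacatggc
Irf9 (chr14:55603735-55604034, + strand): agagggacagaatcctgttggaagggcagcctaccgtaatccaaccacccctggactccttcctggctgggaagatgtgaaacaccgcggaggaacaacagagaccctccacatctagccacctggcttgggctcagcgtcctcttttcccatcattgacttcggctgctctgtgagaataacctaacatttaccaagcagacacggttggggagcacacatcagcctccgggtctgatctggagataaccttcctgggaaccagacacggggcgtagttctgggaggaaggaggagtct

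In Ifit1 the matches began 104 and 85 bases before the start site, and in Ifit3 156 and 122 bases before it. In Isg15 they began 78, 72 and 66 bases before it, and in Bst2 130 and 124 bases before it. The windows of Irf7 and Oasl2 and both windows of Irf9 did not hold these letters. The element of interferon gamma signalling, searched as TTC, any 3 bases, GAA, was in the window of Bst2 alone of the 7 and in 9.55% of all genes.

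The libraries held 38208153 to 39868872 counts on genes. Markers of septal and inhibitory neurons were present in every pool; Zic1, a transcription factor of the septum, had 7712 to 16978 counts. For the 9 genes the libraries differed in a way that the groups do not describe. Control pool 3 had the lowest value of the 3 control pools in 8 of the 9 genes, whereas this pool was the lowest control in 35.7% of all 17255 tested genes. In 7 of the 9 genes the 2 highest values of all 6 pools were those of control pools 1 and 2, a pattern seen in 10.6% of all tested genes. This pool was singled out after its values were seen, and the tests were repeated without it.

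In 8 of the 9 genes the mean level in CPM (counts scaled to library size) was lower in the olanzapine pools, by 1.64-fold in Rtp4 to 3.52-fold in Ifit1, and in Irf9 it was not. In bulk tissue, fewer cells of a type and less RNA per cell cannot be told apart. None of the 9 passed the test. With edgeR's quasi-likelihood F test and p-values adjusted over all tested genes, 0 of 9 had an adjusted p under 0.05, where 2.32% of all tested genes did. At an unadjusted p under 0.05 from the same test, 8 of the 9 were lower and 0 higher, against 8.40% of all tested genes lower and 9.19% higher. The 9 genes had a median log2 fold change of -1.45, beside 0.0039 over all tested genes. DESeq2, the tool that the study used, called 7 of the 9 lower at an adjusted p under 0.05 (all but Rtp4 and Irf9), where 2.42% of the genes that it could adjust were called lower. In a single set of counts simulated with known changes, DESeq2 made 51 false calls among 17055 unchanged genes, and edgeR 12. DESeq2 there recovered 82 of 100 genes with a true log2 change of size 1, and edgeR 74. With limma on log2(FPKM + 1), 0 of 9 were called, where 1.94% of all genes in that fit were.

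**Figure D1:**
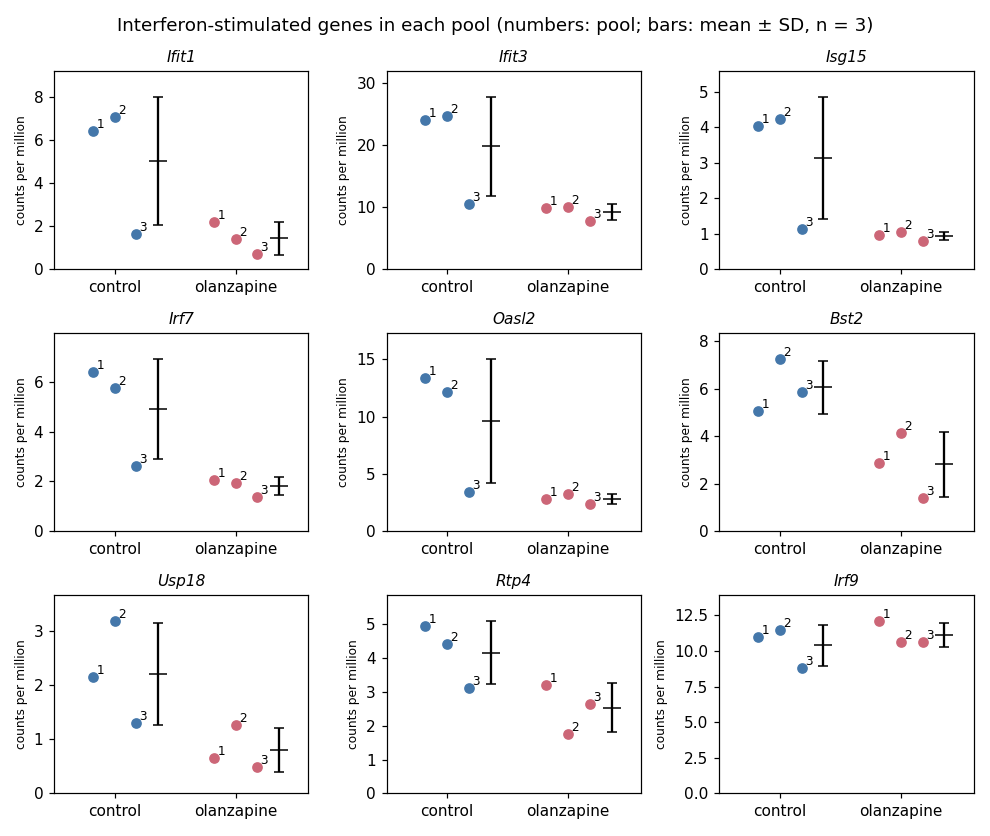
Level of each gene in CPM (linear axis from 0) in the 3 control and the 3 olanzapine pools. Points are pools, with their number beside them, and bars are mean ± SD; control pools 1 and 2 stand above the other 4 pools in 7 of the 9 panels, and in Irf9 the pools of both groups intermingle.

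The effectors act on viral RNA or particles. Ifit1, whose protein binds foreign RNA and blocks its translation (chromosome 19, 34640889 to 34650009), had control counts of 251, 281 and 64 (pools 1 to 3) and olanzapine counts of 84, 55 and 27 (pools 1 to 3). The groups overlapped, since control pool 3 lay below olanzapine pool 1. Control pools averaged 5.05 ± 2.99 CPM and olanzapine pools 1.43 ± 0.762 CPM (SD, n = 3), giving a log2 fold change of -1.81 ± 0.59 (SE; edgeR, adjusted p = 0.165). Ifit3, a partner of Ifit1 in the same cluster (chromosome 19, 34583119 to 34588982), had control counts of 942, 980 and 414 and olanzapine counts of 373, 398 and 299. All 3 olanzapine pools lay below the controls, but control pool 3 was much nearer to them than to control pools 1 and 2. The log2 fold change of Ifit3 was -1.10 ± 0.30 (SE; edgeR, adjusted p = 0.117). Ifit3 shared 31.7% of its stretches of 100 bases with its copy Ifit3b, and Ifit1 shared 3.29% with Ifit1bl2, so the split of reads between Ifit3 and Ifit3b is uncertain.

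Oasl2 belongs to the oligoadenylate synthetase family, which senses double-stranded RNA (chromosome 5, 114896926 to 114912245). It had control counts of 522, 479 and 135 and olanzapine counts of 108, 127 and 92. The groups did not overlap, although only 8 counts separated control pool 3 from olanzapine pool 2. Control pools averaged 9.63 ± 5.41 CPM and olanzapine pools 2.81 ± 0.423 CPM (SD, n = 3), giving a log2 fold change of -1.78 ± 0.45 (SE; edgeR, adjusted p = 0.0983).

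Bst2 encodes tetherin, which holds budding viruses at the cell surface (chromosome 8, 71534255 to 71537472). Its control counts were 198, 287 and 230 and its olanzapine counts 109, 164 and 55, without overlap. Bst2 was the 1 member in which control pool 3 was not the lowest control, and its control pools lay within 1.43-fold of each other. Its olanzapine pools spread over 2.93-fold, with pool 3 the lowest. The log2 fold change was -1.10 ± 0.36 (SE; edgeR, adjusted p = 0.165).

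Rtp4, an interferon-induced chaperone that helps receptors reach the cell surface (chromosome 16, 23520219 to 23614222), had control counts of 193, 175 and 123 and olanzapine counts of 121, 70 and 103. Control pool 3 and olanzapine pool 1 were almost equal in counts, and after normalization the groups overlapped. Its log2 fold change of -0.71 (standard error 0.28, adjusted p = 0.237 from edgeR) was the smallest among the 8 genes with lower means. Its exons overlap those of Gm45338 on the same strand over 13.9% of their bases.

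Isg15 and Usp18 act in ISGylation, the attachment of the ubiquitin-like protein Isg15 to other proteins. Isg15 (chromosome 4, 156199424 to 156200818) had control counts of 158, 167 and 45 and olanzapine counts of 36, 41 and 31. The olanzapine pools were below every control pool and lay within 1.30-fold of each other, whereas the control pools spread over 3.70-fold. The log2 fold change was -1.75 ± 0.48 (SE; edgeR, adjusted p = 0.114). Usp18 removes Isg15 from its targets and also damps the interferon receptor (chromosome 6, 121245906 to 121270917). It had control counts of 84, 126 and 51 and olanzapine counts of 25, 50 and 19. Olanzapine pool 2 reached nearly the level of control pool 3. The log2 fold change of Usp18 was -1.45 ± 0.46 (SE; edgeR, adjusted p = 0.161).

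Irf7 is the factor that amplifies the transcription of type I interferons (chromosome 7, 141263183 to 141266499). It had control counts of 249, 227 and 103 and olanzapine counts of 78, 77 and 54. No olanzapine pool reached a control pool. Control pools averaged 4.91 ± 2.01 CPM and olanzapine pools 1.80 ± 0.358 CPM (SD, n = 3), giving a log2 fold change of -1.45 ± 0.35 (SE). Its adjusted p of 0.0847 from edgeR was the lowest of the 9.

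Irf9 is a DNA-binding partner of Stat2 (chromosome 14, 55603985 to 55610030). It had control counts of 430, 453 and 346 and olanzapine counts of 459, 420 and 413. The pools of both groups were intermingled, with the highest value in olanzapine pool 1 and the lowest in control pool 3. The log2 fold change was 0.10 ± 0.14 (SE; edgeR, adjusted p = 0.781), and without control pool 3 it turned to -0.0063.

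The 3 olanzapine pools lay below all 3 control pools in 6 of the 9 genes, namely Ifit3, Isg15, Irf7, Oasl2, Bst2 and Usp18. This was seen in 11.0% of all tested genes. In 0 of the 9 did they lie above, against 13.3% of all tested genes. The spread inside the control group was wide for most members. The highest control pool was 4.37-fold above the lowest in Ifit1, 3.90-fold in Oasl2 and 3.70-fold in Isg15, and only 0.714%, 0.784% and 0.847% of the 14279 genes with a mean of at least 50 counts spread as far. Over the 9 genes this ratio had a median of 2.44 among controls and 1.48 after olanzapine, beside 1.20 and 1.24 over all tested genes.

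The fits that left out 1 pool show how far the calls rest on control pool 3. Without it, edgeR called 4 of the 9 genes lower, Ifit3 (adjusted p = 0.0138), Isg15 (adjusted p = 0.0193), Irf7 (adjusted p = 0.0332) and Oasl2 (adjusted p = 0.00716), where 0.226% of all genes tested in that fit were called lower. Oasl2 then had a log2 fold change of -2.17 and Isg15 of -2.14. Ifit1 had a log2 fold change of -2.23 in that fit and was not called (adjusted p = 0.0780 from edgeR). Leaving out any 1 of the other 5 pools gave 0 calls among the 9 genes. The log2 fold changes of the 8 lower genes kept their sign in all 6 fits. They ranged from -2.27 to -1.48 in Ifit1, from -1.40 to -0.91 in Ifit3 and from -1.50 to -0.79 in Bst2. Over every alternative tried, other tools included, the adjusted p of Oasl2 ran from 0.000405 (DESeq2) to 0.324, that of Irf7 from 0.00214 to 0.259, that of Ifit3 from 0.00265 to 0.327 and that of Isg15 from 0.00658 to 0.314. The same range was 0.0113 to 0.408 for Ifit1, 0.0280 to 0.410 for Bst2 and 0.0439 to 0.418 for Usp18, with the lowest value from DESeq2 in each. Rtp4 (0.136 to 0.481) and Irf9 (0.662 to 0.989) were called by none of edgeR, DESeq2 and limma.

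**Figure D2:**
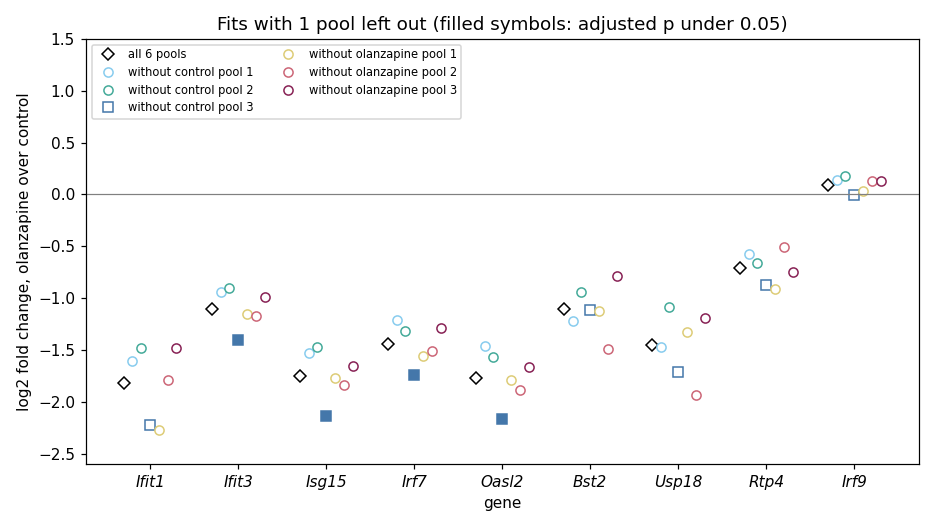
Log2 fold change of each gene (vertical axis, olanzapine over control) from edgeR with all 6 pools (diamonds) and with 1 pool left out (other symbols). Symbols are filled where the adjusted p was under 0.05, which is the case for Ifit3, Isg15, Irf7 and Oasl2 without control pool 3 and for no other point.

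Across the 6 pools the profiles of the members resembled each other, apart from that of Irf9. Among the 8 genes without Irf9, Pearson's r of log2 CPM had a median of 0.90 over the 28 pairs, with a range from 0.43 between Bst2 and Rtp4 to nearly 1 between Isg15 and Oasl2. These values describe 6 points that share libraries and groups. The mean standardized level of the 9 genes (each gene's log2 CPM scaled over the 6 pools) read 0.99, 1.12 and -0.33 for the control pools in order and -0.31, -0.48 and -0.99 for the olanzapine pools. Control pool 3 thus stood beside olanzapine pool 1 on this scale. Of 14270 other genes with a mean of at least 50 counts, the 10 whose log2 CPM followed this profile most closely included Snx19 (r = 0.998), Cspg4 (r = 0.983), Gorasp1, Sfmbt1, Neu3, Slco5a1, Zbtb38 and Btbd7 (r = 0.973), over 6 pools. None of the 10 belonged to the wider list. Pearson's r compares the shape of a profile and not its size. The log2 fold changes of the genes named here ran from -0.61 in Cspg4 to -0.14 in Snx19. That of Rtp4, the smallest among the 8 lower members, was -0.71.

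Levels can be compared between genes on the FPKM scale, which accounts for length. In the control group Bst2 (7.43 ± 1.40 FPKM, SD, n = 3) and Ifit3 (7.32 ± 2.94 FPKM, SD, n = 3) were the highest of the 9, followed by Isg15 (4.10), Irf9 (3.84), Oasl2 (3.04), Irf7 (2.51), Ifit1 (1.89), Rtp4 (1.40) and Usp18 (1.24). All 8 neighbouring pairs in this order overlapped in their pools. In the olanzapine group Irf9 (4.17 ± 0.249 FPKM, SD, n = 3) came before Bst2 (3.53 ± 1.78 FPKM, SD, n = 3) and Ifit3 (3.46 ± 0.523 FPKM, SD, n = 3), and the other 6 genes lay between 0.461 FPKM in Usp18 and 1.24 FPKM in Isg15. Here 6 of the 8 neighbouring pairs overlapped, and Ifit3 stood apart from Isg15, and Isg15 narrowly from Irf7.

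A wider list of 78 genes was described in the same way. It holds further interferon-stimulated genes, the other enzymes of ISGylation and the interferon-inducible GTPases. Of these, 73 had a row in the tables and 68 were tested. The median log2 fold change was -0.40, and 60 of the 68 were lower in the mean. Without olanzapine pool 3 the median was -0.24, and with limma on log2(FPKM + 1) it was -0.16. Of the 68, 1 was called lower and 0 higher at an adjusted p under 0.05 from edgeR. Of all 17255 tested genes, 85 were called lower and 316 higher, together 2.32%. At an unadjusted p under 0.05, 14 were lower and 0 higher, against 8.40% and 9.19% of all tested genes. The olanzapine pools were below every control pool in 11 of the 68 genes and above in 1, against 11.0% and 13.3% of all tested genes. DESeq2 called 6 genes of this list, all lower, where it called 2.42% of the genes that it could adjust lower. The 2 highest values were those of control pools 1 and 2 in 33 of the 68 genes, against 10.6% of all tested genes.

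The called gene was Ifitm3, whose membrane protein blocks the entry of viruses. It had control counts of 827, 887 and 705 and olanzapine counts of 501, 501 and 453. Here the control pools lay close together and well above the olanzapine pools, unlike in Ifit1 or Isg15. The log2 fold change was -0.71 ± 0.12 (SE; edgeR, adjusted p = 0.0235). The call was lost without control pool 1 or 2 or olanzapine pool 2 or 3, with adjusted p from 0.0790 to 0.124.

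The 9 genes with the next lowest p-values were all lower in the mean and were not called by edgeR, with adjusted p from 0.0887 to 0.203 when all 6 pools were used. DESeq2 called 5 of them lower, namely Lgals3bp (adjusted p = 0.0184), Ifit3b (0.0226), Trim25 (0.0254), Gm4951 (0.0432) and Uba7 (0.0452), and edgeR called Lgals3bp without olanzapine pool 2 (adjusted p = 0.0168). Trim25, a ubiquitin ligase that acts on the RNA sensor RIG-I, had control counts of 369, 354 and 346 and olanzapine counts of 231, 263 and 247, a log2 fold change of -0.51. Uba7, the activating enzyme of ISGylation, had control counts of 118, 184 and 111 and olanzapine counts of 71, 81 and 66, a log2 fold change of -0.90. In both genes the groups were apart, and control pool 3 lay nearer to control pool 1 than to any olanzapine pool. Lgals3bp, a secreted galectin-binding protein, had a log2 fold change of -0.62, the RNA sensor Ifih1 of -0.71, the RNA-activated kinase Eif2ak2 of -0.54 and the GTPase Gbp2 of -0.75. Ifit3b (control counts 554, 488 and 222, olanzapine counts 163, 264 and 186) and Ifi44 (control counts 38, 65 and 12, olanzapine counts 12, 12 and 11) followed the profile of Ifit1, with control pool 3 among the olanzapine pools. Gm4951 had control counts of 33, 45 and 15 and olanzapine counts of 6, 9 and 7, a log2 fold change of -2.04.

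Of the remaining enzymes of ISGylation, Ube2l6, the conjugating enzyme, had a log2 fold change of -0.43 and Herc6, the mouse ligase, of 0.07, and neither was called. Of the 15 tested interferon-inducible GTPases, 14 were lower in the mean, 2 of them at an unadjusted p under 0.05 (8.40% of all tested genes), and 0 were called by edgeR (2.32% of all tested genes). Epsti1 was the gene of the wider list in which every olanzapine pool was above the controls, with control counts of 35, 38 and 13 and olanzapine counts of 47, 59 and 44 (adjusted p = 0.370 from edgeR).

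**Figure D3:**
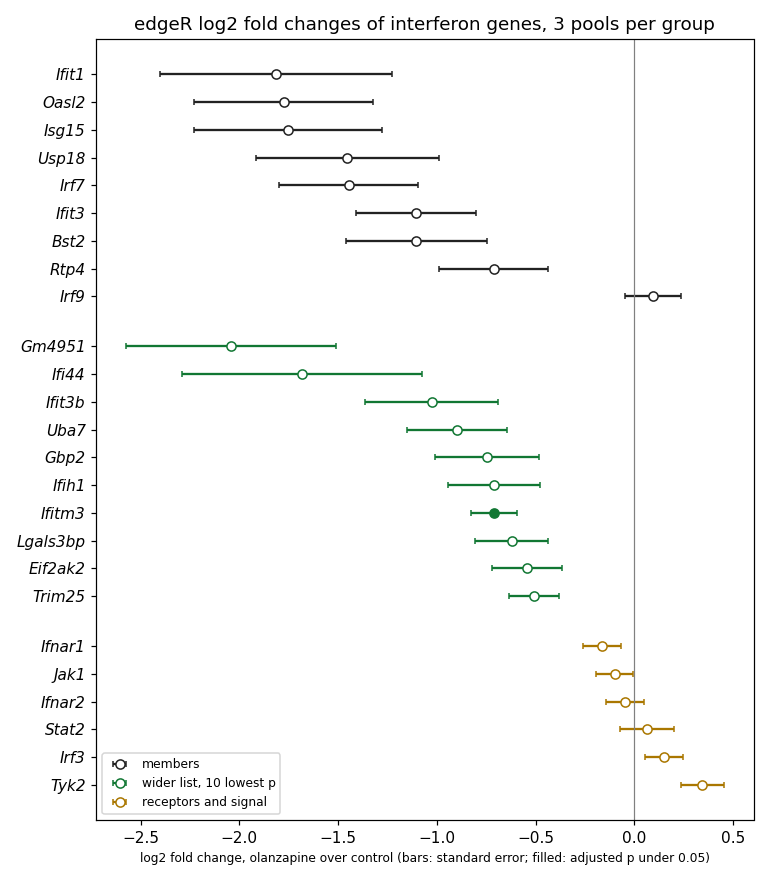
Log2 fold change with its standard error (horizontal axis, olanzapine over control, edgeR, 3 pools per group) of the 9 members, the 10 genes of the wider list with the lowest p and 6 receptor and signalling genes. Filled points have an adjusted p under 0.05, which holds for Ifitm3 alone; 8 members lie left of 0, and the receptor and signalling genes lie between -0.17 and 0.34.

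Transcripts of the interferons themselves were at or near 0. Of 21 interferon genes listed, 20 had 0 counts in every pool. Ifng, the exception, had 1 count in each control pool and 0, 0 and 12 in olanzapine pools 1 to 3. A count of 0 allows up to 3 counts in a library of this size, so low levels were not detectable.

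The receptors and the signalling chain showed no common direction. Of 28 tested genes for receptors, signalling and nucleic acid sensing, 14 were lower and 14 higher in the mean, with a median log2 fold change of 0.0029. With edgeR 0 were called (2.32% of all tested genes), with limma on log2(FPKM + 1) 0 (1.94%) and with DESeq2 1, which was lower (2.42% of the genes it could adjust). At an unadjusted p under 0.05 from edgeR, 2 were lower and 1 higher, against 8.40% and 9.19% of all tested genes. Some sensors were counted in the wider list and not here. These are the RNA sensors Ifih1, Ddx58 and Dhx58, the RNA-activated kinase Eif2ak2 and the nucleic acid sensor Zbp1. Their log2 fold changes were -0.71, -0.59, -0.32, -0.54 and -1.47 in that order, and edgeR called none of them. Ifnar1 had control counts of 1714, 1952 and 1632 and olanzapine counts of 1665, 1491 and 1491, and Ifnar2 had a log2 fold change of -0.05. The kinase Jak1 had a log2 fold change of -0.10, and Irf3, which responds to nucleic acid sensors, of 0.15. Tyk2 had control counts of 427, 402 and 398 and olanzapine counts of 486, 549 and 500, a log2 fold change of 0.34 (adjusted p = 0.157 from edgeR).

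Stat2, which binds the ISRE together with Irf9, had control counts of 672, 653 and 600 and olanzapine counts of 759, 665 and 555. The pools of both groups were intermingled, as in Irf9, and the log2 fold change was 0.06 (adjusted p = 0.854 from edgeR).

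**Figure D4:**
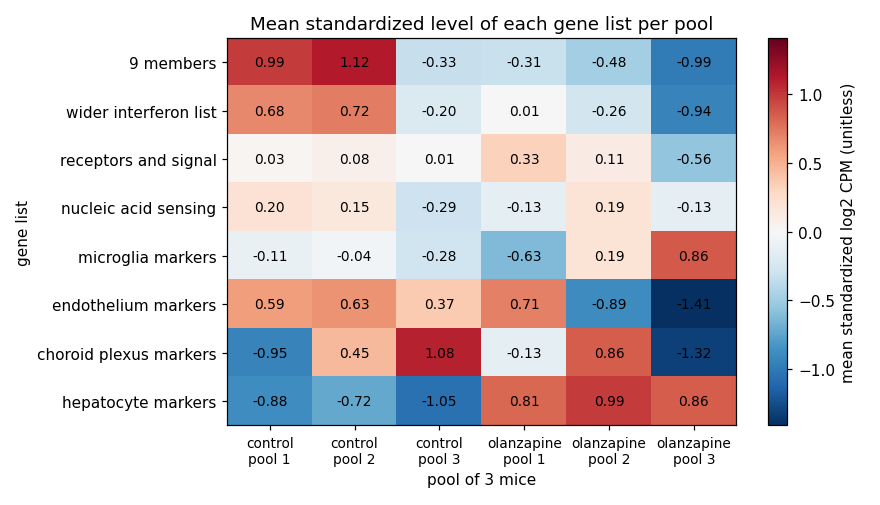
Mean standardized log2 CPM (unitless, colour and number) of 8 gene lists in each of the 6 pools. The members read 0.99 and 1.12 in control pools 1 and 2 and from -0.99 to -0.31 in the other 4 pools, while the lists of receptors and signal and of nucleic acid sensing stay between -0.56 and 0.33.

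Lists of cell type markers were summed in each pool, as a description of the tissue. Their calls by edgeR stand against 2.32% of all tested genes, and those at an unadjusted p under 0.05 against 8.40% lower and 9.19% higher. The 13 microglia markers summed to 521 to 536 CPM in the control pools and to 501 to 586 CPM in the olanzapine pools, and 0 of them were called (edgeR), with 3 lower and 2 higher at an unadjusted p under 0.05. The 10 endothelium markers summed to 299 to 317 CPM in the control pools and to 312, 216 and 199 CPM in olanzapine pools 1 to 3. All 10 had lower means in the olanzapine group, 0 were called (edgeR) with 2 at an unadjusted p under 0.05, and their mean standardized log2 CPM read 0.59, 0.63 and 0.37 for the control pools in order and 0.71, -0.89 and -1.41 for the olanzapine pools. Of 16 markers of blood and immune cells, 3 were at 0 in every pool, Ms4a1 and Ly6g among them, 4 had enough counts to be tested, and the sum was 57.4 to 77.4 CPM in the control pools and 62.8 to 82.8 CPM in the olanzapine pools.

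The 9 choroid plexus markers varied most, with sums of 106, 2713 and 7530 CPM for the control pools in order and of 1166, 4733 and 69.9 CPM for the olanzapine pools. Control pool 3 had the most of them. The 11 hepatocyte markers summed to 12.5 to 23.3 CPM in the control pools and to 243 to 302 CPM in the olanzapine pools, and all 11 were called higher (edgeR). Of 12 neuronal markers, most of them septal or inhibitory, 9 had lower means in the olanzapine group and 0 were called (edgeR), with 3 lower and 0 higher at an unadjusted p under 0.05 (Zic1, Trpc4 and Gad2). Zic1 was below the controls in every olanzapine pool, with control counts of 16978, 13617 and 13194 and olanzapine counts of 7712, 10597 and 12654, while the pan-neuronal Snap25 and Rbfox3 had higher means. The mean standardized log2 CPM of the 12 read 0.77, 0.32 and -0.18 for the control pools in order and -0.91, -0.39 and 0.39 for the olanzapine pools. The 8 astrocyte markers summed to 5323 to 5871 CPM in the control pools and to 4570 to 5235 CPM in the olanzapine pools, and 0 were called (edgeR), with 3 lower (Slc1a2, Aqp4 and Gja1) and 0 higher at an unadjusted p under 0.05. The part of these differences in the levels of the interferon-stimulated genes was not tested.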

How the data were processed

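Septal RNA from pools of 3 mice was sequenced as paired-end reads, 3 pools per group. The authors trimmed reads with fastp, aligned them with HISAT2 (build mm10, per the labels) and deposited HTSeq raw counts per gene; versions and the strand setting are not given in the sources used here. The authors also deposited FPKM. All 6 columns of each table were used.

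Counts were tested with edgeR 4.0.16 in R 4.3.3: filterByExpr at a minimum count of 10, TMM, group as the only term, quasi-likelihood F test, Benjamini-Hochberg adjustment over 17255 genes. Standard errors are the size of the log2 fold change over the square root of F. CPM use TMM library sizes, and log2 CPM a prior count of 2. The P values measure the spread between pools; with 3 pools per group an exact permutation test cannot go below 0.1. DESeq2 1.42.0 and limma 3.58.1 (FPKM, pseudocount 1 or 0.1) were alternatives. Scripts were tested on simulated data. Named genes are the 9 members, the 10 lowest p of the wider list, chosen signalling genes and the 10 genes most alike, of which some are not reported here; others were named after their values were seen. The members and lists were chosen with earlier results of these data known. Mx1, Mx2, Oas1b, Gbp11 and Mnda of the lists were not analysed here; Cgas and Sting1 were matched through older symbols. Shared stretches of 100 bases and exon overlaps came from GENCODE M21 (GRCm38), gene positions and promoters from RefSeq.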

Additional observations from a re-analysis of the deposited data

How the results depend on the processing

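All values here are log2 fold changes or numbers of genes called at an adjusted p under 0.05. The number of the 9 genes called was 0 with edgeR and went to 7 with DESeq2 and to 8 at an unadjusted p; leaving out 1 pool gave 0 to 4, with 4 only without control pool 3. DESeq2 called 1097 genes in all and edgeR 401. The 9 genes had a median of -0.83 in limma fits of log2(FPKM + 1), both filtered and unfiltered, a scale that shrinks low levels. For the wider list the number called, 1, went to 6 with DESeq2, to 14 at an unadjusted p, and to 0 with the replicate block or with a fold change beyond 2; leaving out 1 pool gave 0 to 1. For receptors and sensors, 0 went to 1 with DESeq2 and to 3 at an unadjusted p, and leaving out 1 pool gave 0 to 1. Leaving out 1 pool moved Irf9 between -0.0063 and 0.17 and Stat2 between -0.069 and 0.17, the 2 genes whose sign turned. Other normalizations and count filters changed no number of calls among the 9 genes, which was also 0 with the replicate block, against 140 genes in all. The numbers do not pair the pools: same-numbered pools deviated from their group means with r of -0.0026, 0.062 and -0.25. Low counts, such as 19 to 126 in Usp18, and 3 pools per group limit the precision.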
